A study of Mus musculus with 35 samples.

Results

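The kidney transcriptome of newborn mice labelled as lacking both Flcn (in part of the tubule) and Tfe3 (throughout the body) was compared with that of mice labelled as controls of the same cross, in the 9 libraries of a single count table out of the 35 libraries of the series. The table was chosen whole, with 6 libraries labelled Flcn/Tfe3 DKO (double knockout) and 3 labelled control, all from kidneys taken at postnatal day 2 on a C57BL/6 background. According to the study's results the DKO mice were Flcn flox/flox; Ksp-cre+; Tfe3 -/-. Ksp-cre is driven by the promoter of Cdh16 and acts in collecting ducts, distal tubules and the thick ascending limb, so that Flcn is deleted only in those cells of a whole kidney, whereas the Tfe3 allele is constitutive. The labels call the 3 other animals controls of this cross and name no allele, and each library a biological replicate, without giving litters. The study describes its control mice as Flcn flox/flox but does not tie that genotype to these libraries. Whether these controls keep Tfe3 or carry Cre is not given. The question behind the comparison is how much of the response to the loss of Flcn remains when TFE3 is missing and its relative TFEB is still there.

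FLCN (folliculin), with FNIP1 or FNIP2, activates the GTPases RagC and RagD at the lysosome, and these present the transcription factors TFEB and TFE3 to the kinase mTORC1, which keeps them in the cytoplasm. Without FLCN the factors enter the nucleus and switch on genes of lysosomes, of autophagy and of the Rag pathway itself. In the kidney the tubule segments with active Ksp-cre include the intercalated cells of the collecting duct, which acidify the urine with a vacuolar proton pump (V-ATPase) in their plasma membrane and are rich in mitochondria.

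Between 3122979 and 4239356 reads were counted on genes in the DKO libraries and between 3538665 and 3873439 in the controls, so that 3 counts, the most that a count of 0 allows, stand for 0.708 to 0.961 CPM (counts scaled to a common library size) per library; this limit covers counting error only. No difference between the groups was detected in the total (exact two-sided permutation test over 84 regroupings, p = 1.0), in the share of mitochondrial counts (p = 0.810 by the same test), in the number of genes with a count (p = 0.619) or in the share taken by the 10 highest genes (p = 0.667), where the smallest p possible is 0.0238. Library pairs of different groups correlated as closely on log2 CPM across genes (0.929 to 0.971 over 18 pairs) as pairs of DKO libraries (0.935 to 0.968 over 15 pairs). In 2 of 3 control libraries and 5 of 6 DKO libraries Y-linked counts were present. Control 2 and DKO 3 had no more than 1 count of the Y-linked gene Ddx3y and had 181 and 176 CPM of Xist, the RNA of the inactive X chromosome, and control 1 had 9.98 CPM of Xist beside 111 CPM of Ddx3y. Markers of the adrenal gland, which lies on the kidney, summed to 479.3, 345.3 and 5.099 CPM in controls 1 to 3 and to 486.9, 8.634, 385.3, 2.518, 27.36 and 12.69 CPM in DKO 1 to 6, so that 2 libraries of each group were above 100 CPM. Of the 13 markers in this list 1 was at 0 in all libraries and 11 were tested, all with a log2 fold change (DKO minus control, as throughout) below 0, and none was called. The part of adrenal RNA, of sex or of litter in the results below was not tested beyond the refits named beside them.

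The targeted genes were examined first. Flcn was at 11.5, 15.7 and 8.5 CPM in the controls and at 15.6, 6.7, 11.6, 17.4, 15.2 and 12.2 CPM in DKO 1 to 6, and the groups overlapped. Tfe3 was at 24.6, 16.2 and 26.4 CPM in the controls and at 26.0, 21.1, 13.4, 22.4, 25.2 and 17 CPM in the DKO libraries, again with overlap. The log2 fold changes were 0.14 (SE 0.28) for Flcn and -0.097 (SE 0.23) for Tfe3, with adjusted p = 0.92 and 0.94 from edgeR's quasi-likelihood test, and both changed sign when control 3 was left out, that of Tfe3 also without DKO 3 (0.00095). QuantSeq reads come from the 3′ end of a transcript and can lie outside the deleted part, so these values check neither deletion, and each group is named here by its label. Cdh16, whose promoter drives the Cre, was at 243.4 to 280.5 CPM in the controls and 258.4 to 308.9 CPM in the DKO libraries (log2 fold change 0.12, SE 0.11). Tfeb (-0.26, SE 0.26), Mitf (0.0052, SE 0.19), Tfec (0.49, SE 0.34), Fnip1 (0.21, SE 0.17) and Fnip2 (0.52, SE 0.29) did not pass the test either.

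Among 13191 genes tested, 8 passed an adjusted p of 0.05, all higher in the DKO libraries (0.0606% of genes tested), and 0 were called lower, where called means here and in the lists below this edgeR quasi-likelihood test on all 9 libraries unless another test is named. They are the Rag GTPase Rragd, the proton pump subunits Atp6v1g3 and Atp6v1c2, the water channel Aqp6, the potassium-transporting ATPase subunit Atp12a, the monocarboxylate transporter Slc16a7, the guanylin precursor Guca2a, and Plet1, a gene of placental and epithelial cells. They rose between 1.84-fold (Plet1) and 3.15-fold (Aqp6), and for each of them all 6 DKO libraries lay above all 3 controls. In whole kidneys a different number of cells of a type and a different amount of RNA per cell cannot be told apart. At an unadjusted p under 0.05 there were 505 genes higher (3.83%) and 360 lower (2.73%), and groups that did not overlap were found for 230 genes with DKO higher (1.74%) and 161 with DKO lower (1.22%).

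Rragd (ENSMUSG00000028278, mm10 chromosome 4, 32983037 to 33022180, plus strand) encodes RagD, the GTPase through which FLCN acts on TFEB and TFE3, and is itself a known target of these factors. It was at 28.2, 24.2 and 24.1 CPM in the controls and at 64.0, 51.8, 50.1, 62.7, 57.4 and 50.8 CPM in DKO 1 to 6. The lowest DKO library was well clear of the highest control, and the means were 56.1 ± 6.19 CPM (SD, n = 6) and 25.5 ± 2.32 CPM (SD, n = 3). The log2 fold change was 1.14 (SE 0.15, adjusted p = 0.0128 from edgeR's quasi-likelihood test). The Rag genes Rragc (0.075, SE 0.16) and Rraga (-0.053, SE 0.19), looked up after their values were seen, did not pass the test.

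Atp6v1g3 (ENSMUSG00000026394, chromosome 1, 138273738 to 138289462, plus strand), the kidney form of the G subunit of the proton pump, was at 93.9, 86.7 and 119.3 CPM in the controls and at 207.0, 258.4, 208.3, 193.9, 230.3 and 310.6 CPM in the DKO libraries. DKO 6 was the highest and the groups did not overlap, with a log2 fold change of 1.23 (SE 0.17, adjusted p = 0.0128). Atp6v1c2 (ENSMUSG00000020566, chromosome 12, 17284721 to 17329359, minus strand), the tissue-restricted C subunit, was at 8.7, 12.1 and 12.2 CPM in the controls and at 29.6, 30.1, 24.7, 21.1, 31.4 and 33.8 CPM in the DKO libraries (log2 fold change 1.37, SE 0.21, adjusted p = 0.0278 by the same edgeR test). Its lowest DKO value was again above its highest control value.

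Aqp6 (ENSMUSG00000043144, chromosome 15, 99601400 to 99605477, plus strand) is a channel of the intracellular vesicles of acid-secreting intercalated cells. It was at 14.1, 15.7 and 23.2 CPM in the controls and at 57.9, 72.3, 26.5, 69.8, 51.7 and 54.6 CPM in the DKO libraries. DKO 3 lay near the controls and the other five were far above them (log2 fold change 1.65, SE 0.28, adjusted p = 0.0393 from edgeR's test). Atp12a (ENSMUSG00000022229, chromosome 14, 56365068 to 56388550, plus strand), the catalytic subunit of the non-gastric proton-potassium pump of the collecting duct, was at 34, 26.8 and 31.2 CPM and at 52.5, 66.8, 48.0, 59.8, 56.6 and 58.9 CPM (log2 fold change 0.90, SE 0.15, adjusted p = 0.0406).

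Slc16a7 (ENSMUSG00000020102, chromosome 10, 125219270 to 125389465, minus strand), which carries lactate and pyruvate across membranes, was at 32.5, 31.9 and 43.3 CPM in the controls and at 76.0, 90.5, 59.0, 85.4, 72.1 and 83.8 CPM in the DKO libraries (log2 fold change 1.12, SE 0.17, adjusted p = 0.0240 from edgeR's test). Guca2a (ENSMUSG00000023247, chromosome 4, 119637704 to 119639471, plus strand), a peptide that acts on guanylate cyclase, was at 6.4, 8.2 and 5.9 CPM and at 17.8, 18.9, 18.2, 16.9, 24.1 and 32.2 CPM (log2 fold change 1.63, SE 0.26, adjusted p = 0.0368). Plet1 (ENSMUSG00000032068, chromosome 9, 50494525 to 50505482, plus strand) was at 42, 51 and 37.7 CPM and at 86.9, 85.7, 68.8, 87.0, 84.2 and 69.0 CPM (log2 fold change 0.88, SE 0.15, adjusted p = 0.0393). In all 3 genes the DKO libraries formed a group above the controls. On the opposite strand Atp6v1c2 overlaps Pdia6, Plet1 overlaps Plet1os, and Rragd, Slc16a7 and Atp12a overlap pseudogenes or unnamed RNAs, and since the strand setting of the counting is not given in the sources used here, reads of such partners may be included.

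**Figure D1:**
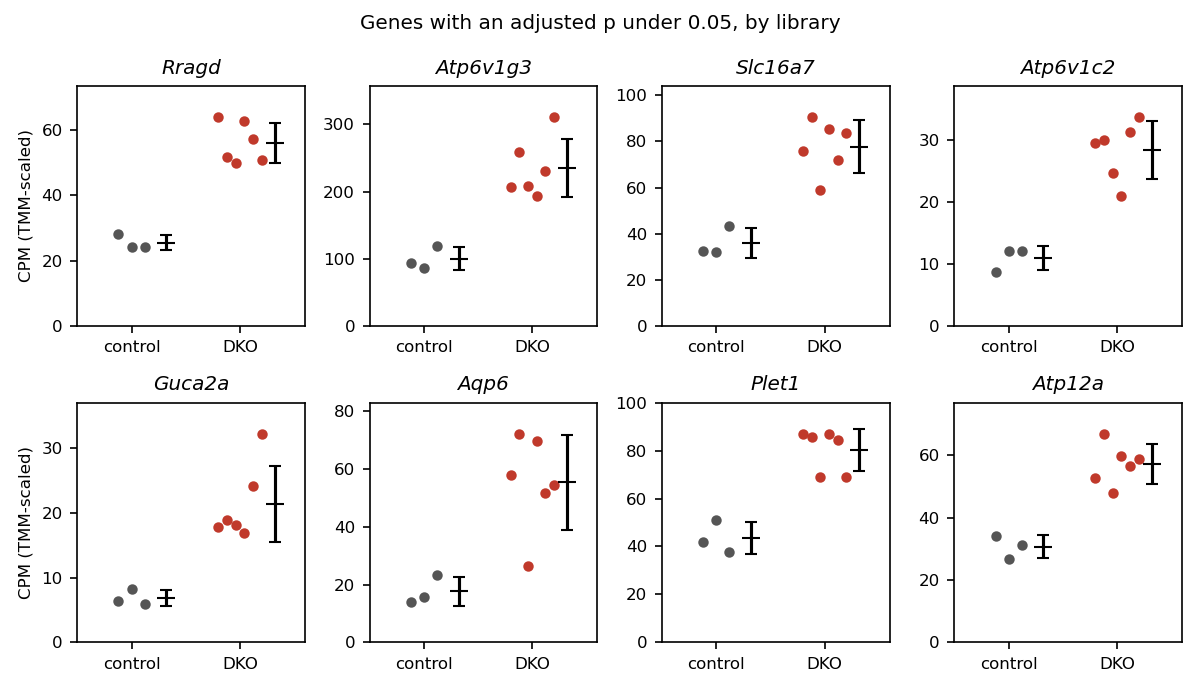
Each panel shows 1 called gene, with its TMM-scaled CPM on the vertical axis (starting at 0) in the 3 control libraries (grey) and the 6 DKO libraries (red), and with a bar for the mean and SD of each group. No DKO library falls within the control range in any panel, and Aqp6 in DKO 3 (26.5 CPM) comes closest to it (23.2 CPM in control 3).

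The calls were lost when some libraries were left out, while the log2 fold changes of the 8 genes stayed above 0. When each library was left out in turn, the number of called genes was 0 without control 1 or control 2, 2 without control 3 or without DKO 1, 2, 5 or 6, 7 without DKO 4 and 11 without DKO 3. Over the same refits the log2 fold change stayed between 1.10 and 1.22 for Rragd, between 1.14 and 1.38 for Atp6v1g3 and between 1.51 and 1.90 for Aqp6. Rragd lost its call only without a control (highest adjusted p = 0.103, edgeR), and Atp6v1g3 only without control 1 or 2 (highest adjusted p = 0.212). Of the 9 refits Slc16a7 kept its call in 3, Atp6v1c2 and Guca2a in 2 each, and Aqp6, Plet1 and Atp12a in 1 each, with adjusted p up to 0.337 for Aqp6 and Plet1 and 0.247 for the others of these. With the adrenal marker sum as a covariate 8 genes were called, but Atp12a was not among them and Spink8 was (adjusted p = 0.0456, edgeR). Over all 24 alternatives, which include fits on 6 libraries, the adjusted p ran from 5.54e-08 to 0.999 for Rragd and from 6.99e-09 to 0.999 for Atp6v1g3. DESeq2 called 29 genes, all 8 among them, and limma-voom 3. With the Xist level as a covariate 5 genes were called, 4 of the 8 among them, and 5, again with 4 of the 8, in the libraries with Y-linked counts alone.

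**Figure D2:**
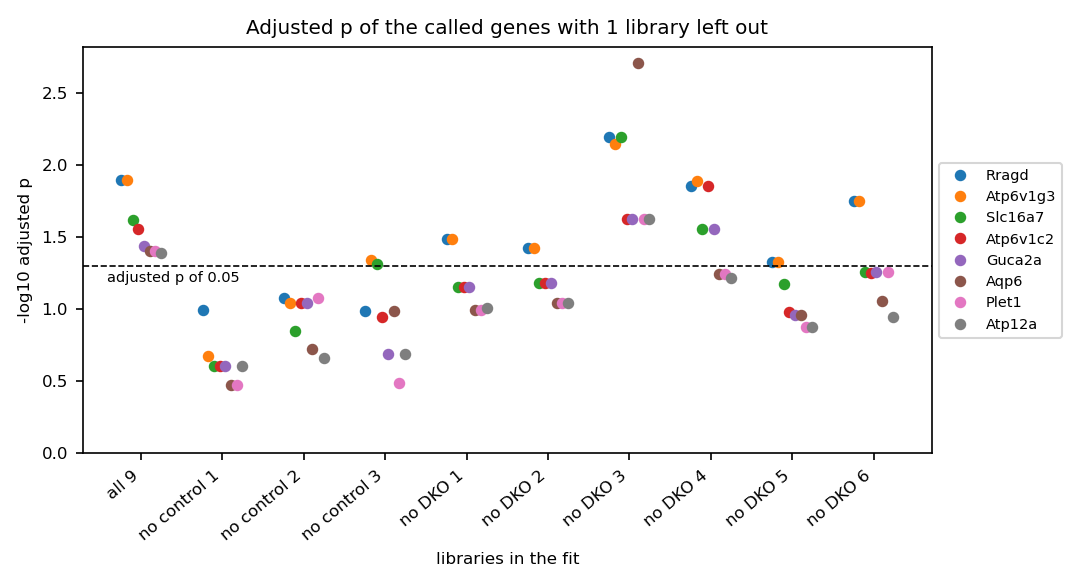
The vertical axis gives -log10 of the adjusted p (edgeR) of each called gene, and the horizontal axis the libraries in the fit, first all 9 and then with 1 library left out. Points above the dashed line pass 0.05, and none does without control 1 or without control 2.

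Of the 30 genes with the smallest p, 25 had a log2 fold change above 0. Of these 25, 20 belong to a list of transcripts increased in Flcn KO kidneys (134 of the 13191 genes tested), as do all 8 called genes. By the study's text the list was chosen for that increase in another cross, whose libraries are not in this comparison, but the study also examined it in the DKO mice, so that it is not independent evidence. Of its members 138 are in the table and 134 were tested, and 122 of the 134 were above 0, where 50.3% of all genes tested were. An unadjusted p under 0.05 was found for 74 above 0 and for 1 below (3.83% and 2.73% of all genes tested), for 46 all DKO libraries were above all controls and for 0 below (1.74% and 1.22% of all genes tested), and the median log2 fold change was 0.44 against 0.0023 over all genes tested. The members ranged from -1.34 to 3.55. The 4 members that did not pass the filter were Rnase1, Msx1, Lrrc31 and Gm17435. Rnase1 had no count in the 3 controls and 0.320 to 2.75 CPM in the DKO libraries, and the other three were under 5 CPM in every library.

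**Figure D3:**
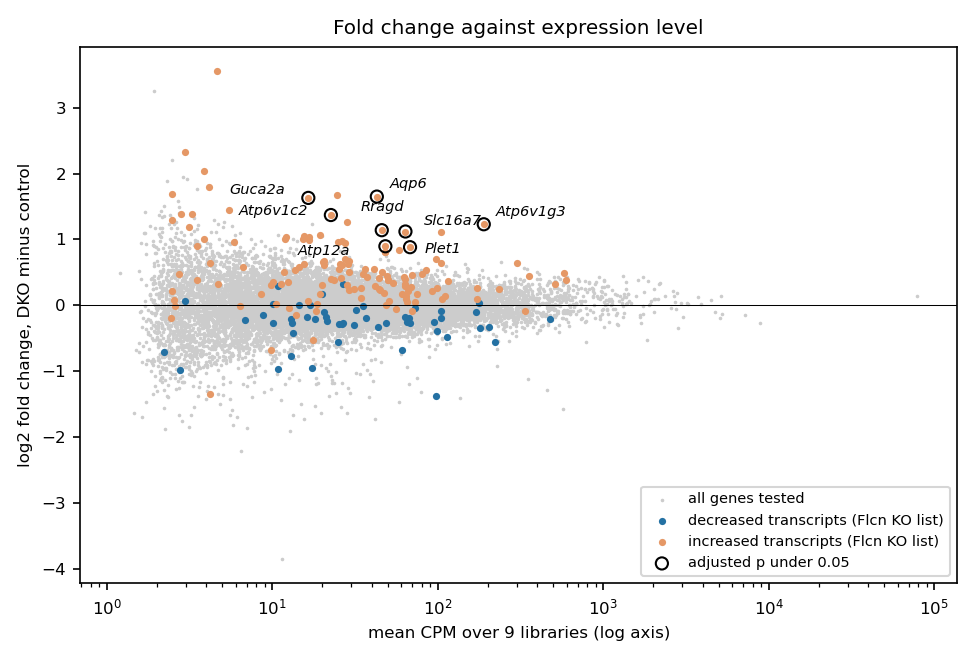
The log2 fold change of each gene tested is plotted against its mean CPM over the 9 libraries (log axis), with the increased transcripts in orange, the decreased transcripts in blue and the 8 called genes circled. The orange points lie mostly above 0 (122 of 134) and the blue ones mostly below (43 of 51), and the called genes lie at middle levels of expression.

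Behind the 8 called genes stood others whose groups did not overlap but whose adjusted p was over 0.05. Mlph, which links Rab27a vesicles to myosin, was at 0.5, 0.0 and 1.1 CPM in the controls (a few reads) and at 5.1, 12.5, 3.9, 6.4, 4.6 and 7.4 CPM in the DKO libraries (log2 fold change 3.55, SE 0.66, adjusted p = 0.0765 from edgeR's test, with DESeq2 and the likelihood ratio test under 0.05). Rab27a, the GTPase of that complex, was at 8.50 to 13.1 CPM in the controls and 15.8 to 25.2 CPM in the DKO libraries (0.99, SE 0.24), and Slc24a5, an ion exchanger of melanosomes, was at 0.3 to 1.0 CPM and 2.4 to 5.8 CPM (2.32, SE 0.54). In the whole list of melanosome and vesicle transport genes, however, 7 of 12 tested were above 0 with a median of 0.018 and 0 called, 3 above 0 had an unadjusted p under 0.05 (3.83% of all genes tested), and in 4 all DKO libraries were above the controls (1.74%). With 1 library left out the median ran from -0.022 (without DKO 5) to 0.28 (without control 2), and the mean score of the list, on the log2 CPM scale, was -0.13 to 0.19 in the controls and 0.26 to 0.61 in the DKO libraries. S100a14, a calcium-binding protein, was at 6.8 to 15.4 CPM and 22.2 to 43.6 CPM (1.68, SE 0.30, adjusted p = 0.0633 from edgeR's test). DESeq2, the likelihood ratio test and edgeR's robust quasi-likelihood test called S100a14. Spink8, a protease inhibitor, was at 42.2 to 67.2 CPM and 95.2 to 168.8 CPM (1.12, SE 0.22), and Slc26a7, an anion exchanger, at 10.2 to 13.9 CPM and 18.9 to 28.2 CPM (1.05, SE 0.21). Values above 0 of the same kind were found for Nabp1 (1.27), Plin4 (3.25, from 0.5 CPM or less in the controls), Tmem30b (1.02), Ckb (0.70), Ccng1 (0.71), Me3 (0.82) and Egfl6 (0.54), and for Ckmt1 (0.84), whose groups overlapped. Both DESeq2 and the likelihood ratio test called Spink8, Slc26a7, Nabp1, Ckb and Ckmt1. Only the former called Ccng1 and Egfl6, and only the latter Plin4 and Slc24a5. None of the genes of this paragraph was called by limma-voom.

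Genes of the vacuolar proton pump, which fills lysosomes and the luminal membrane of intercalated cells, had their larger fold changes in a few subunits. Of 26 tested members 21 were above 0 (50.3% of all genes tested) and 2 were called higher (0.0606% of all genes tested). An unadjusted p under 0.05 was found for 8 above 0 (3.83% of all genes tested) and for 0 below (2.73%). In 6 members all DKO libraries were above all controls (1.74% of all genes tested), and the median was 0.21. Beside Atp6v1g3 and Atp6v1c2, Atp6v0d2, the kidney form of the d subunit, was at 34.8, 29.8 and 31.4 CPM in the controls and 60.7, 54, 42, 55.4, 59.6 and 64.5 CPM in the DKO libraries (0.81, SE 0.16, adjusted p = 0.105 from edgeR's test). Atp6v1g3, Atp6v1c2 and Atp6v0d2 are also among the increased transcripts and in the intercalated cell list below, so that these lists are not separate results. Atp6v0b was at 246.7 to 277.6 CPM and 281.4 to 502.8 CPM (0.56, SE 0.16), without overlap. The other kidney forms Atp6v1b1 (0.22) and Atp6v0a4 (0.036) and the widely expressed Atp6v1b2 (0.076) and Atp6v0d1 (0.0072) did not pass the test. These subunits were looked up because they are the counterparts of those above, after their values were seen.

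Markers of the intercalated cell, as a list of 21 genes, had a median log2 fold change of 0.45, with 18 above 0 (50.3% of all genes tested). Of these 21 genes 3 were called higher (Atp6v1g3, Atp6v1c2, Aqp6), where 0.0606% of all genes tested were. An unadjusted p under 0.05 was found in 10 above 0 (3.83% of all genes tested) and in 0 below (2.73%). DESeq2 called 6 of 20 tested, edgeR's likelihood ratio test 6 of 21 and limma-voom 1. Among all 13191 genes in the fit these tests called 29, 26 and 3 in that order. The quasi-likelihood test called 0 without control 1 or without control 2. In 8 of the 21 genes DKO was above the controls without overlap (1.74% of all genes tested). The median was 0.26 and 0.27 in the libraries numbered 1 to 3 with and without a replicate block, and 15 of 21 were above 0 with Xist or the adrenal sum as a covariate or in the libraries with Y-linked counts alone. Their summed level was 789.4 to 923.0 CPM in the controls and 1151 to 1372 CPM in the DKO libraries, and none of the 21 was without counts. Abundant members weigh most in this sum. Mean levels in controls and DKO libraries were 99.97 and 234.7 CPM for Atp6v1g3 and 58.38 and 127.2 CPM for Spink8. Both genes are among the increased transcripts, and the sum without such genes was not taken. Car12, a carbonic anhydrase, was at 71.9 to 83.4 CPM and 108.1 to 129.4 CPM (0.65, SE 0.12, adjusted p = 0.0765 from edgeR's test). DESeq2 and the likelihood ratio test called Car12, and limma-voom did not. Other members of the list were picked after their values were seen. The transcription factors Foxi1 (0.57, SE 0.23) and Dmrt2 (1.76, SE 0.46) and the chloride channel subunit Bsnd (0.59, SE 0.17) were above 0. The exchanger of acid-secreting cells, Slc4a1 (-0.037, SE 0.34), and that of base-secreting cells, Slc26a4 (0.049, SE 0.33), were near 0 and of uncertain sign. Slc4a1 is also in the list of red blood cell markers, so its value cannot be assigned to either cell type. The red blood cell markers summed to 3952 to 6405 CPM in the controls and 3526 to 6666 CPM in the DKO libraries. Because 8 of the 21 genes are also among the increased transcripts, the other 13 were looked at alone, and 11 of these were above 0 with a median of 0.23.

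In the list of principal cells, the other main cells of the collecting duct, 9 of 17 members were above 0 with a median of 0.015, and the difference between the lists was not tested. This median ran from -0.18 without DKO 4 to 0.093 without DKO 1, so that its sign is uncertain. The 11β-hydroxysteroid dehydrogenase Hsd11b2 (0.36) and the sodium channel subunit Scnn1g (0.40) were above 0 and the water channel Aqp4 (-0.47) and the keratin Krt18 (-0.26) below it, and none was called. In the thick ascending limb 10 of 14 tested markers were above 0 with a median of 0.16, or 0.088 without DKO 6. Umod, the urinary protein uromodulin, was at 214.9, 193.8 and 249.6 CPM in the controls and at 321.4, 363.3, 301.0, 344.1, 331.9 and 382.5 CPM in the DKO libraries (0.64, SE 0.13, adjusted p = 0.115 from edgeR's test), and Ptger3, a prostaglandin receptor, at 8.2 to 10.5 CPM and 13.7 to 20.4 CPM (1.01, SE 0.21). The groups did not overlap in either gene, and DESeq2 and the likelihood ratio test called both, while limma-voom called neither. Sostdc1, a BMP and WNT antagonist (0.49), and Cldn10, a tight junction gene (0.39), came next, while the salt transporter Slc12a1, chosen after its value was seen, was at 0.014 (SE 0.17). Of the markers 4 are among the increased transcripts.

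Genes with TFEB bound near them by chromatin immunoprecipitation (13 genes, all tested, listed by the study) are all members of the increased transcripts and so no separate result. They had a median of 0.31, with 11 above 0 and 1 called (Rragd), where 50.3% and 0.0606% of all genes tested were above 0 and called higher. An unadjusted p under 0.05 was found for 7 above 0 (3.83% of all genes tested) and for 0 below (2.73%). The 6 lysosomal genes of the increased transcripts had a median of 0.40, with 6 above 0, 0 called and 5 higher at that p. DESeq2 (adjusted p = 0.00240) and edgeR's likelihood ratio test (adjusted p = 0.00632) called 1 of them, Atp6v0d2. Among all 13191 genes in the fit these 2 tests called 29 and 26. Among them the protease Ctsd was at 471.8, 456.8 and 551.3 CPM in the controls and at 558.0, 704.4, 575.7, 641.3, 647.7 and 741.1 CPM in the DKO libraries, so that the groups came close without overlap (0.39, SE 0.13, adjusted p = 0.752 from edgeR's test). The hydrolases Hexa (0.38) and Asah1 (0.47) and the adaptor subunits Ap1m2 (0.41) and Gga2 (0.10) had positive values. Of the bound genes other than Rragd, Mlph and Asah1, Hsbp1l1 (1.04), Bhlhe41 (0.90), Gadd45a (0.41), Gadd45g (0.31), Soat1 (0.29), Slc20a1 (0.24), Mcoln3 (0.17) and Vamp8 (0.099) were above 0, and Gpnmb (-0.012) and Grn (-0.079) were not. The sign was not stable under the refits for Mcoln3, Vamp8, Gga2, Gpnmb and Grn.

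TFEB and TFE3 bind the letters CACGTG, often flanked as TCACGTGA, which read the same on both strands. The promoter windows of RefSeq (build GRCm38.p6) were searched over the 250 bases before each start for the genes called and for those bound or lysosomal. Of these 25 genes 20 had a window, and 6 of the 20 held CACGTG, against 9.81% of the 10235 tested genes with a window; 1 of 20 held TCACGTGA, against 1.73%. Of the 8 called genes 6 had a window and 1, Aqp6, held the letters. The match of Aqp6, that of Mlph and the longer one of Ctsd are shown because they lie before RefSeq starts of a called gene, of the gene with the highest log2 fold change of all tested and of Ctsd, which had the highest CPM among the 6 lysosomal genes; capitals mark the matched letters, and sequences run 5′ to 3′ on the strand of the gene.
Aqp6, chr15:99601161-99601186, plus strand: ctggaacagaCACGTGagcactctga
Mlph, chr1:90915042-90915067, plus strand: aggagtagccCACGTGatctgagccg
Ctsd, chr7:142387910-142387935, minus strand: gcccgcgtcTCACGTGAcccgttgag
The matched hexamers start 29, 48 and 98 bases before the RefSeq start in that order. RefSeq and GENCODE place these starts differently, and the GENCODE model of Ctsd, on the minus strand of chromosome 7 from 142375911 to 142388038, includes the match shown, while that of Aqp6 starts farther from its match. A match of letters is a description of the window and not evidence of binding.

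Lysosomal genes at large were near the centre of all genes. In the list of 55 hydrolases and their activators 34 were above 0, 0 were called and the median was 0.12. An unadjusted p under 0.05 was found for 6 above 0 (3.83% of all genes tested) and 2 below (2.73%). Aga, which cleaves asparagine-linked sugars, was at 23.2 to 28.8 CPM and 28.5 to 49.2 CPM (0.60, SE 0.20), and the phospholipase Pla2g15 at 15 to 18 CPM and 9.21 to 13.5 CPM (-0.55, SE 0.20). Of 50 tested genes of the lysosomal membrane and of sorting 31 were above 0 with a median of 0.077, and 2 were higher at that p, among them Ap3s1 (1.88). Of 44 autophagy genes 30 were above 0 with a median of 0.11, and 5 were higher. The receptor Optn (0.63, SE 0.22), which is one of the increased transcripts, and Gabarapl1 (0.37, SE 0.13), Vmp1 (0.41, SE 0.17) and Epg5 (1.59, SE 0.52, from 1.80 CPM or less in the controls) had the smallest p, and none was called. In the list of mTORC1 and amino acid sensing 8 of 23 were above 0 with a median of -0.095.

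Of the nuclear genes of the respiratory chain nearly all had a log2 fold change above 0. Of 78 tested subunits 77 were above 0, with a median log2 fold change of 0.32 and a range of -0.0010 to 0.75. At an unadjusted p under 0.05 there were 35 higher (3.83% of all genes tested) and 0 lower (2.73%), yet 0 were called. DKO was above the controls without overlap in 3, where 1.74% of all genes tested were. The ATP synthase subunit Atp5g1 was at 336.0, 406.8 and 429.2 CPM in the controls and at 485.1, 508.7, 507.8, 463.8, 515.5 and 497.2 CPM in the DKO libraries (0.34, SE 0.12, adjusted p = 0.752 from edgeR's test). The cytochrome oxidase subunit Cox4i1 was at 713.6, 803.9 and 787.3 CPM and at 935.5, 969.5, 1173, 763.8, 1093 and 1269 CPM (0.43, SE 0.15), where DKO 4 fell among the controls. Ndufb6 of complex I (0.56, SE 0.19) and Uqcr11 of complex III (0.40, SE 0.14) followed. Between 75 and 78 of the 78 or 79 subunits tested were above 0 in each of the refits with a library left out, and the median then lay between 0.25 and 0.39.

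Averaged over the 78 subunits on the log2 CPM scale and set to 0 at the control mean, the 3 controls stood at -0.096, 0.16 and -0.063 and DKO 1 to 6 at 0.22, 0.13, 0.50, 0.032, 0.39 and 0.51, so that DKO 2 and DKO 4 lay within the control range and the others above it. Of the list 2 subunits are among the increased transcripts. The 11 tested genes of the mitochondrial genome had a median of 0.13 (9 above 0, 0 called), and 67 of 77 cytosolic ribosomal protein genes, which are short and abundant like many respiratory subunits, were above 0 with a median of 0.13, 1 of them higher at an unadjusted p under 0.05. The ribosomal list scores were 0.073, 0.17 and -0.24 in the controls and 0.14, -0.19, 0.39, -0.25, 0.31 and 0.29 in DKO 1 to 6, so that DKO 2 and DKO 4 were again the lowest DKO libraries and control 2 the highest control, and the part of this shared order in the respiratory values was not tested. The mitochondrial median was 0.043 without control 2 and 0.065 without DKO 4, or 0.22 without control 1, and the ribosomal one was 0.041 without control 3 and 0.070 without DKO 3. In fatty acid oxidation 31 of 36 genes were above 0 with a median of 0.18, and 6 were higher at that p. Hadhb, a subunit of the trifunctional protein, was at 38.2 to 43.8 CPM and 51.5 to 76.6 CPM (0.57, SE 0.16), the thioesterase Acot1 at 88.1 to 113.6 CPM and 123.6 to 153.5 CPM (0.47, SE 0.13), and Acadvl (0.32) and the carnitine carrier Slc25a20 (0.43) were apart between the groups too. Among regulators of mitochondria, Esrrg (0.50, SE 0.19) and its coactivator Ppargc1a (0.36, SE 0.16) were above 0 and Pprc1 (-0.74) was below.

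**Figure D4:**
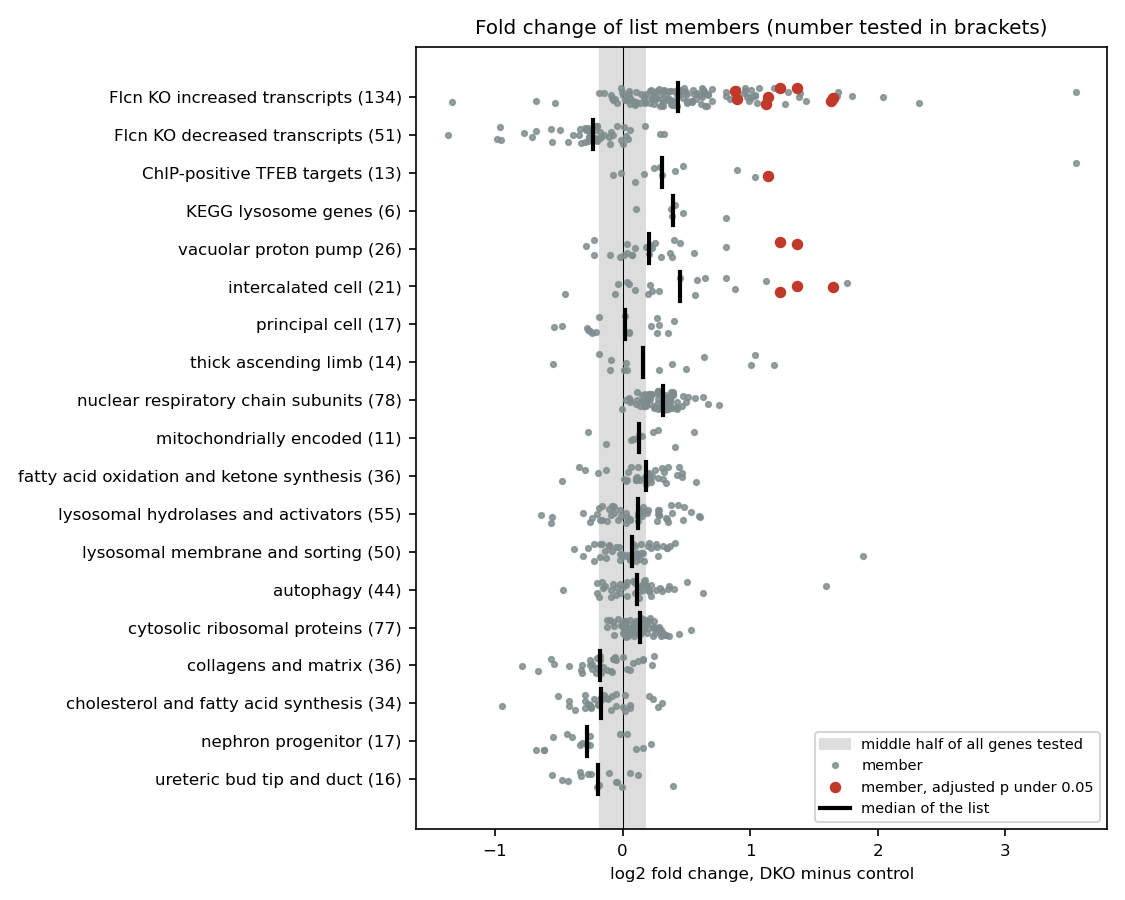
Log2 fold changes of the tested members of 19 gene lists (points, red where called), with the median of each list as a black bar and the range between the quartiles of all genes tested as a grey band. The respiratory subunits lie almost entirely to the right of 0 (77 of 78) with no called gene, whereas the intercalated cell list reaches from -0.45 to 1.76 and holds 3 called genes.

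On the side of lower expression 0 genes were called by edgeR's quasi-likelihood test, and 360 had an unadjusted p under 0.05. DESeq2 called Ptger1, Pklr, Col11a1, Sobp and Tmem150c lower, edgeR's likelihood ratio test the first 4 of these, and the quasi-likelihood test with no filter on low counts Col11a1 and Saa3. The prostaglandin receptor Ptger1 was at 30.2, 29.3 and 36.6 CPM in the controls and at 18.4, 15, 20.6, 15.3, 15.2 and 19.3 CPM in the DKO libraries, without overlap (-0.89, SE 0.17, adjusted p = 0.105 from edgeR's test). The pyruvate kinase Pklr was at 14.4 to 17.7 CPM and 4.5 to 9.4 CPM (-1.27, SE 0.26, adjusted p = 0.118). The collagen Col11a1 was at 56.6, 14.2 and 16.7 CPM in the controls, of which control 1 stood far above the others, and at 5.7 to 10.8 CPM in the DKO libraries (-1.73, SE 0.36, or -0.81 without control 1). Sobp (-1.11) and Tmem150c (-0.71) were also apart between the groups.

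The 52 transcripts decreased in Flcn KO kidneys, taken from the same source and no more independent, had a median of -0.23. Of 51 tested 8 were above 0 (50.3% of all genes tested) and 0 were called. An unadjusted p under 0.05 was found for 11 below 0 (2.73% of all genes tested) and for 0 above (3.83%). In 4 members all DKO libraries were below all controls (1.22% of all genes tested). The other member, Serpina3k, did not pass the filter. Pck1, the key enzyme of gluconeogenesis, was at 284.5, 331.2 and 234.6 CPM in the controls and at 233.7, 148.1, 215.1, 189.3, 165.5 and 201.0 CPM in the DKO libraries (-0.56, SE 0.15), so that the highest DKO library was just under the lowest control. The transporter Slc22a8 was at 130.5 to 149.3 CPM and 86.1 to 132.8 CPM (-0.49, SE 0.14), and the transcription factor Hlf at 14.7 to 22.7 CPM and 7.56 to 14.5 CPM (-0.77, SE 0.24). Gsdmc3 stood at -0.96. The stress-responsive ubiquitin gene Ubb stood at -1.37, but control 2 had 400.7 CPM against 60.9 and 35.7 CPM in the other controls, and without control 2 the log2 fold change was 0.41.

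Genes of the developing kidney were mostly below 0. Of 17 tested markers of nephron progenitors 4 were above 0 and the median was -0.28, or -0.18 without control 1. Of these markers 0 were called and 3 were lower at an unadjusted p under 0.05 (2.73% of all genes tested). The transcription factor Six2 was at 47.3, 33.5 and 18.4 CPM in the controls and at 34.2, 16.9, 15.8, 23.4, 23.6 and 15.7 CPM in the DKO libraries (-0.61, SE 0.28). The range of the controls was wider than the difference between the group means, and the same was so for Osr1 (-0.68), Uncx (-0.62, or 0.0071 without control 1) and Lhx1. Without control 1 the log2 fold change was -0.26 for Six2 and -0.35 for Osr1. Lhx1 was at 175.2 to 258.4 CPM and 108.8 to 195.1 CPM (-0.55, SE 0.20). In the list of the ureteric bud tip and duct 3 of 16 were above 0 with a median of -0.19 (-0.088 without control 3, -0.13 without DKO 3 and -0.29 without control 2), with Sox9 at -0.48, Tfap2b at -0.43, Emx2 at -0.33 and the GDNF coreceptor Gfra1 at -0.33. Collagens and matrix genes (9 of 36 above 0, median -0.17 or -0.050 without control 1, 6 lower at that p) included Lox (-0.79, or 0.022 without control 1), Eln (-0.66, or -0.45 without control 1 or control 2 and -1.01 without control 3), Col1a1 (-0.56, or -0.21 without control 1) and Col5a1 (-0.54, or -0.18 without control 1), and Col1a1 was at 1435 CPM in control 1 against 825.8 and 748.2 CPM in controls 2 and 3.

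**Figure D5:**
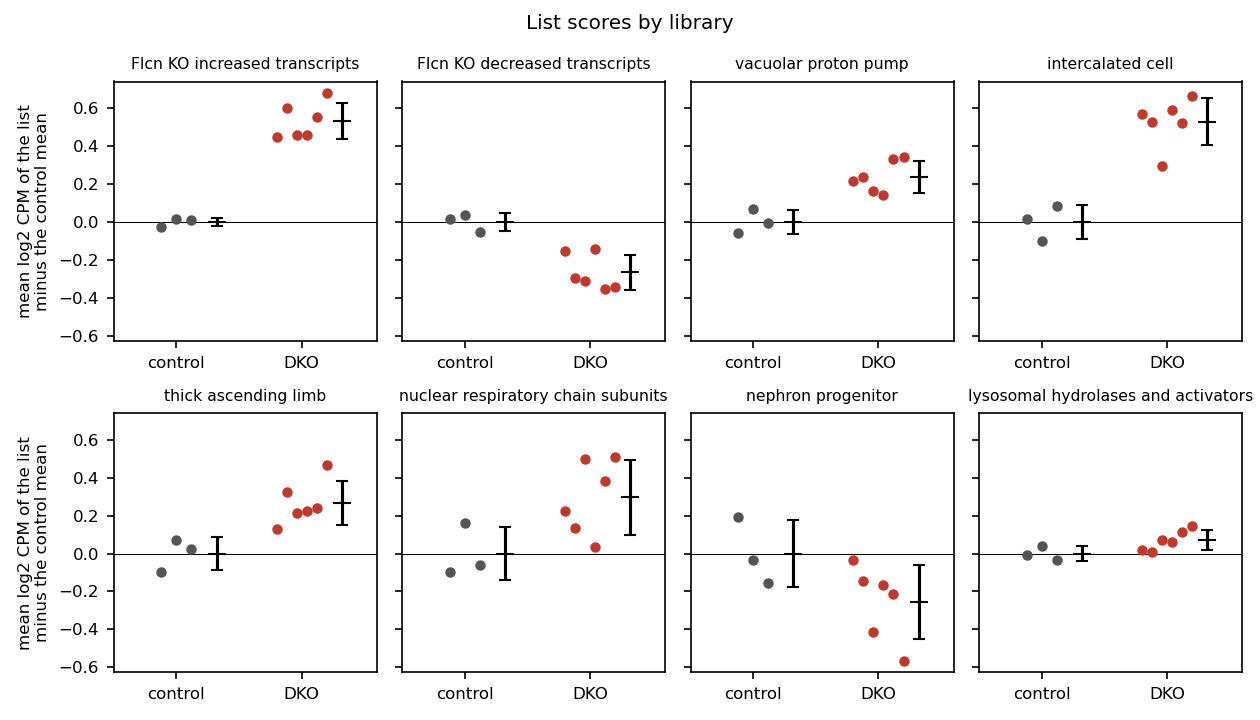
Each panel gives the mean log2 CPM of a gene list in each library minus the mean of the 3 controls, with grey points for controls, red points for DKO libraries and bars for the mean and SD. The 2 groups are apart in the lists of increased and decreased transcripts, proton pump, intercalated cell and thick ascending limb, and they overlap for respiratory subunits, nephron progenitors and hydrolases.

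Most of the other cell types and pathways had medians nearer to that of all genes. The median was -0.00093 for 27 proximal tubule markers, -0.054 for 14 markers of the distal convoluted tubule, -0.14 for 14 of podocytes, 0.096 for 16 of endothelium, -0.036 for 18 of stroma, 0.16 for 23 myeloid markers and -0.051 for 9 of red blood cells, with 0 genes called in any of them. Summed myeloid markers were at 416.7 to 678.3 CPM in the controls and 543.8 to 626.7 CPM in the DKO libraries. The median was 0.16 for 5 tested lymphocyte markers and 0.24 for 8 of adipose tissue and muscle, with 0 called. These medians depended on single libraries and were 0.010 for lymphocytes without DKO 5, and 1.90 without control 2 and -0.66 without DKO 3 for adipose tissue and muscle. Summed markers of adipose tissue and muscle were highest in control 2 (467.6 CPM) and DKO 3 (618.9 CPM), against 204.8 to 399.0 CPM in the others, and both libraries were also high in respiratory subunits (0.16 and 0.50), and the part of these cells in the respiratory values was not tested. Glycolysis and hypoxia genes (32 tested) had a median of -0.024, cell cycle genes (48) -0.045, genes of the ATF4 stress response (32) -0.071, NRF2 targets (26) 0.032, genes of cystic kidney disease (34) -0.085 and of tubular injury (30) -0.020, again with 0 called, although DESeq2 (adjusted p = 0.000416) and edgeR's likelihood ratio test (adjusted p = 0.0110) called Umod, a member of the cystic disease list. In cholesterol and fatty acid synthesis 9 of 34 genes were above 0 with a median of -0.17, 1 of them lower at an unadjusted p under 0.05.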

How the data were processed

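RNA of mouse kidneys was made into QuantSeq 3′ mRNA libraries from 100 ng of total RNA and sequenced on a NovaSeq in single-end reads of 100 bases. By the study's methods the authors trimmed reads with bbduk and aligned them on mm10 with STAR, whereas the submitters' processing notes name Trim Galore and STAR. The deposited values are raw counts per gene, made by the authors with HTSeq-count and not normalized. The table holds 31053 genes and no row for uncounted reads, and 0 columns of other samples were used.

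Genes passing edgeR's filterByExpr on the groups (13191) were scaled with TMM factors and tested with edgeR 4.0.16 (R 4.3.3; quasi-likelihood F test, two-sided, Benjamini-Hochberg over all genes tested, threshold 0.05). CPM use the TMM-scaled library sizes, and log2 CPM a prior count of 2. Standard errors were taken from the log2 fold change and the F value. Groups come from the labels, and DESeq2 1.42.0, limma 3.58.1, other filters, scalings, covariates and left-out libraries were alternatives. No pair of libraries of a group was alike within sampling noise (chi-square per degree of freedom 4.11 to 17.9 over 18 pairs). The fit was tested on simulated data. Positions are those of GENCODE release 21 for mouse on mm10, and 99.9% of gene IDs matched. Named were the FLCN and MiT/TFE genes, called genes, the next by p up to 30, bound and lysosomal genes, and up to 4 genes of each list by smallest p, besides those said to be chosen later. The 44 gene lists, the comparison and its tests were chosen with earlier results of these data known. P-values measure the spread between these animals, whose litters are not given.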

Additional observations from a re-analysis of the deposited data

Results flagged for a closer look

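Among 152 values looked at over the 6 DKO libraries (levels of named genes, list scores and library measures), 5 had a highest or lowest library whose gap to the next was above Dixon's 95% critical value for the share of the range, where chance flags about 1 in 20 (7.60). The share of mitochondrial counts was 3.56% in DKO 4 against 1.79% to 2.39% in the others. Egfl6 was at 78.4 CPM in DKO 3 against 93.8 to 101 CPM, and all were above the controls. Slc22a8 was at 133 CPM in DKO 4 against 86.1 to 103 CPM, within the control range of 130.5 to 149.3 CPM. Gfra1 was at 46.9 CPM in DKO 1 against 38.4 to 41.1 CPM, and Pprc1 at 5.69 CPM in DKO 5 against 7.99 to 8.64 CPM.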

How the results depend on the processing

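The number of called genes (8) became 29 with DESeq2, 26 with edgeR's likelihood ratio test, 3 with limma-voom, 14 with no filter on low counts, 5 with Xist as a covariate, 5 in libraries with Y-linked counts alone, and 0 to 11 with 1 library left out. It stayed at 8 to 11 with the other settings, which were the looser threshold of 0.1 (11), the robust test, RLE or upper quartile factors, the filter at a mean of 10 counts, the mitochondrial share or the adrenal marker sum as covariate, and no mitochondrial or globin genes. In the libraries numbered 1 to 3 of both groups 0 genes were called with a replicate block and 0 without, at 299 and 534 genes with an unadjusted p under 0.05. Whether equal numbers pair animals is not known, as litters are not given. The deviations of equal numbers correlated at 0.332, -0.338 and -0.343. Control 1 correlated best with DKO 1 (0.332), control 2 with DKO 3 (0.335) and control 3 with DKO 4 (0.270). The Y-linked, adrenal and unblocked settings were added after the data were seen. The number of genes whose groups do not overlap (391) held on library totals. The medians of the increased and decreased transcripts and of the respiratory subunits stayed within 1 SD of libraries under all 24 alternatives (0.40 to 0.50, -0.28 to -0.18 and 0.25 to 0.39). Of 1055 refitted medians of the 44 lists 48 moved by more than 1 SD of libraries and 53 changed sign, and medians near 0 could move over 1.5 times with 1 library left out. With 1 library left out the medians ran from 0.038 to 0.13 for hydrolases, 0.060 to 0.12 for autophagy, -0.13 to -0.0066 for mTORC1, -0.19 to -0.080 for cholesterol synthesis, 0.0095 to 0.39 for myeloid cells, -0.27 to -0.061 for podocytes, 0.039 to 0.21 for endothelium and -0.24 to 0.015 for red blood cells. The intercalated median of 0.45 was 0.26 with the replicate block, 0.27 without it in those libraries, 0.32 with Xist, and 0.32 to 0.59 with 1 library left out. The median log2 fold change of all genes was 0.0023 with TMM factors, -0.0056 with RLE and 0.018 with upper quartile factors.

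The sign changed in 61 of 2475 refitted values of 104 named genes, none of them called. With the replicate block the log2 fold changes were -0.085 for Flcn, -0.16 for Mitf, -0.34 for Mcoln3, -0.0068 for Gga2, -0.027 for Slc26a4 and -0.034 for Slc12a1, and without it in those libraries -0.067, -0.15, -0.26, -0.018 and -0.043 in that order, leaving out Slc12a1. With Xist they were -0.18 for Mitf, 0.13 for Gpnmb, -0.0049 for Gga2, -0.21 for Slc26a4 and -0.12 for Slc12a1. With the adrenal sum they were -0.086 for Mitf, 0.23 for Gpnmb, -0.041 for Slc26a4 and -0.096 for Slc12a1. With Y-linked counts they were -0.020 for Mitf, 0.39 for Ubb and -0.13 for Slc26a4. With limma-voom they were -0.0037 for Mitf, 0.076 for Gpnmb, 0.062 for Slc4a1 and -0.0079 for Slc12a1. With the mitochondrial share they were -0.0035 for Mitf, 0.20 for Gpnmb and 0.10 for Slc4a1. Mitf was at -0.0025 with DESeq2 and -0.0027 with RLE factors, and Gpnmb at 0.0093 with upper quartile factors. With 1 library left out the ranges were -0.042 to 0.40 for Flcn, -0.44 to 0.017 for Tfeb, -0.28 to 0.037 for Tfe3, -0.10 to 0.11 for Mitf, -0.096 to 0.33 for Mcoln3, -0.44 to 1.42 for Gpnmb, -0.24 to 0.038 for Grn, -0.011 to 0.23 for Vamp8, -0.95 to 0.0071 for Uncx, -1.84 to 0.41 for Ubb, -0.36 to 0.50 for Slc4a1, -0.22 to 0.24 for Slc26a4, -0.094 to 0.11 for Slc12a1 and -1.10 to 0.022 for Lox. The cause of these changes was not tested.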

Other observations

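The 2 lowest log2 fold changes of all genes tested came with high levels in control 1 and were looked up after their values were seen. The acute-phase gene Saa3 was at 89.3, 1.54 and 0.00 CPM in controls 1 to 3 and at 0.813 to 4.81 CPM in the DKO libraries (log2 fold change -3.85, SE 0.99, adjusted p = 0.482 from edgeR's quasi-likelihood test). Serpina3n, another acute-phase gene, was at 37.6, 0.257 and 2.55 CPM in the controls and at 0.254 to 7.67 CPM in the DKO libraries (-2.21, SE 0.94). In both genes controls 2 and 3 lay near or within the range of the DKO libraries, and control 1 is also the library with the high levels of Col11a1, Lox and Uncx. Neither gene was called with the filter on low counts, and Saa3 was called lower with no filter (adjusted p = 0.0450, edgeR's quasi-likelihood test).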
